A study of Mus musculus with 7 samples.

Results

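The peaks described here are the open chromatin sites that the authors' deposited table placed in introns of protein-coding genes. They number 394 of the 6395 peaks in the table, and they fall in 348 genes. A peak was taken when its gene section was an intron and its gene biotype was protein coding, so no measured value chose the members. Introns of genes of any biotype held 448 peaks, and those of noncoding genes and pseudogenes were left out.

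ATAC-seq, which reads open DNA through the cuts of a transposase, was run on T follicular helper (Tfh) cells, CD4 T cells that support the germinal centre reaction of B cells. They were sorted from spleen as CD4+, CD44+, GITR-, PSGL-1 low, CXCR5 high and PD-1 high. All mice were of the strain B6.Sle1.Yaa and 5 months old. This strain carries Sle1, a lupus susceptibility interval, and Yaa, a translocation to the Y chromosome that adds copies of X-linked genes such as Tlr7, in both groups alike. There were 4 samples from mice given an antibody labelled anti-IFNA1 (the series title names IFNAR1, a chain of the type I interferon receptor) and 3 samples from mice given anti-rat IgG, each 2 times a week for 4 weeks. The labels do not say whether a sample came from 1 mouse or from several.

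The table gives 1 comparison, in which every listed peak was higher on the anti-IFNAR1 side than on the control IgG side. It holds no value per sample, so no result below carries a spread between mice, and no test between mice was possible. Sites that were more open under control IgG are not in this comparison. Fragments were recovered from the steps of the deposited pileup, with a depth ratio of 3.54 between the anti-IFNAR1 and the control side. Of 8 Tfh markers, Bcl6, Pdcd1, Maf, Tcf7 and Tox2 had a listed peak and Cxcr5, Icos and Il21 had none assigned; none of the 8 had an intronic one. None of 16 B cell markers or 12 CD8 T and NK cell markers had any listed peak, and 3 of 20 myeloid markers did (Cd14, Cebpa and Irf8), none of them in an intron. A list of gains at single sites does not measure which cells were sorted.

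Introns are removed from the transcript, but their DNA often holds regulatory elements. Enhancers in T cell genes are commonly intronic, bound by factors such as AP-1, NFAT, RUNX and ETS proteins, and can act on the promoter of the host gene or of a neighbour. An intron can also hold the promoter of a shorter transcript of the same gene, or of a noncoding RNA on either strand. A promoter usually lies open in any cell that uses it, whereas many enhancers are open in few cell types.

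Sequence was at hand for the windows around transcript starts in RefSeq (GRCm38.p6, the same build as mm10), each from 250 bases before a start to 50 after it. Of the 384 peaks on chromosomes with such windows, 10 overlapped one, 5 times at a start of the named gene and 5 times at a start of another gene. The windows below were chosen after the values were seen, to show starts of the named gene that lay wholly inside a peak (Adk, Fbxo11, Tnrc6b) and a start of a noncoding RNA that did so too (Gm39269, on the strand opposite to Zfpm1). Each is 5′ to 3′ on the strand of the transcript. Capitals mark matches to the letters of a GC box (GGGCGG, bound by KLF and SP factors) or a CCAAT box (CCAAT) on either strand.
Adk, chr14:21075902-21076201, + strand: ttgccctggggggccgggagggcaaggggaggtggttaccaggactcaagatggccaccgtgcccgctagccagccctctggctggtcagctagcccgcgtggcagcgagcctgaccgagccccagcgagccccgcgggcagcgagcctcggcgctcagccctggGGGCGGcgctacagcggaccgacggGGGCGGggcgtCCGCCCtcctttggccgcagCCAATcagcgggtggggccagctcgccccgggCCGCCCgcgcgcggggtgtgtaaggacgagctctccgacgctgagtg
Fbxo11, chr17:88064492-88064791, - strand: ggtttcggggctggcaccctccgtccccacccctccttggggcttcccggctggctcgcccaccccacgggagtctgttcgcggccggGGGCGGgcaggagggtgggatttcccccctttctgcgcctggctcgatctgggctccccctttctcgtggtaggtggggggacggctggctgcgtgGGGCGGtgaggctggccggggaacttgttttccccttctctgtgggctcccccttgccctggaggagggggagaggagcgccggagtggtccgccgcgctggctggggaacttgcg
Tnrc6b, chr15:80798360-80798659, + strand: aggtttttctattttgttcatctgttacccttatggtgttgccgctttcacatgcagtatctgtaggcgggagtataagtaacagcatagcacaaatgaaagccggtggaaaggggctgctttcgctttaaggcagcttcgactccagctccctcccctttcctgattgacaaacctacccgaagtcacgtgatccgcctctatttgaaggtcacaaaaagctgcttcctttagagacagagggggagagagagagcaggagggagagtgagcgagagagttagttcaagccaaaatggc
Gm39269, chr8:122285125-122285424, - strand: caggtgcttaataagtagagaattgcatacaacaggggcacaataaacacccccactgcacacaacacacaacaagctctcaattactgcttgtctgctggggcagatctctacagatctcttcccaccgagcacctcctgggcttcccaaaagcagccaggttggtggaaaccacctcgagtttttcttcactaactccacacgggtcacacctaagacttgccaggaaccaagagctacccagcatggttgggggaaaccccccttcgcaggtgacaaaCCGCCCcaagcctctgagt

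The Adk window had 33 CpG sites, a GC content of 75% and a CpG content of 0.786 of that expected from its bases. Adk encodes adenosine kinase, and its peak in intron 1, 23.3 kb from the start of the assigned transcript, had its summit 8 bp from this RefSeq start. The Fbxo11 window had 22 CpG sites and a ratio of 0.577, and the Fbxo11 summit lay 3 bp from the RefSeq start. Fbxo11 encodes an F-box protein that marks BCL6 for degradation. The Tnrc6b window, with 9 CpG sites, a GC content of 48.7% and a ratio of 0.511, held none of the 14 motifs searched, and the summit of the peak in intron 4 lay 222 bp from that start. The Gm39269 window had 5 CpG sites and a ratio of 0.252. The median ratio was 0.549 over the 10 overlapped windows and 0.384 over all 32851 RefSeq windows.

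The letters of the GC box were in 5 of the 10 overlapped windows, against 35.7% of all windows, and those of the CCAAT box in 3, against 37.4%. AP-1 (TGANTCA), RUNX (TGTGGTT), NFAT (TGGAAAA), TCF-1/LEF-1 (ATCAAAG), STAT (TTCNNNGAA), NF-κB (GGGANTTTC), a CTCF core (AGNNGGCGC) and the ETS letters CCGGAAGT and ACAGGAAGT were in none of the 10. An E-box (CAGCTG) was in the Arhgef3 window, GAAANNGAA, a form of the interferon-stimulated response element, in the window of Gm46268 within Kremen1, and NRF1 (GCGCATGCG) in the window of Gm52060 within Fam151b. Over all windows, the shares of these 12 motifs ranged from 1.03% for ACAGGAAGT to 16.3% for the E-box, with 7.81% for AP-1 and 1.75% for NRF1. The peaks overlapped these windows by 7 to 300 bp. A match lay inside the peak in 5 windows, all of them to the GC box or the CCAAT box. In the Arhgef3, Gm46268 and Gm52060 windows, overlapped by 29, 7 and 45 bp, every match lay outside the peak, the E-box of Arhgef3 partly so. Only the letters given were searched, and other forms of these sites were not. With 10 windows these counts are a description only. Peak sequences outside these windows were not used here.

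Most intronic peaks lay early in the transcript by intron number and far from its start by distance. Intron 1 held 173 of the 394 peaks (43.9%, Wilson 95% interval 39.1 to 48.8), intron 2 held 78 (19.8%) and intron 3 held 41 (10.4%). A further 102 (25.9%) lay in intron 4 or later, 32 of them in intron 10 or later, up to intron 87 of Ryr1, the calcium release channel of skeletal muscle. Intron lengths were not at hand, so these shares have no expected share to stand against. The distance, from the near edge of the peak to the start of the assigned transcript, had a median of 20.7 kb and quartiles of 3.70 and 58.6 kb. Within 1 kb lay 64 peaks (16.2%), within 5 kb 110 (27.9%), within 10 kb 140 (35.5%) and beyond 50 kb 114 (28.9%). The table's TSS section reaches 99 bp downstream of a start, so intronic peaks begin beyond it.

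Intron 1 peaks and later ones were at different distances. Of the 173 in intron 1, 96 (55.5%) lay within 5 kb of the start, with a median of 3.43 kb. Of the 221 in later introns, 14 (6.33%) lay within 5 kb, with a median of 38.7 kb. As a share of the transcript's length, 142 peaks (36.0%) lay in the first 20% and 42 (10.7%) in the last 20%. The quartiles of distance were 0.549 and 20.3 kb for intron 1 and 17.0 and 104 kb for later introns, a difference that the plot of distances shows.

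**Figure D1:**
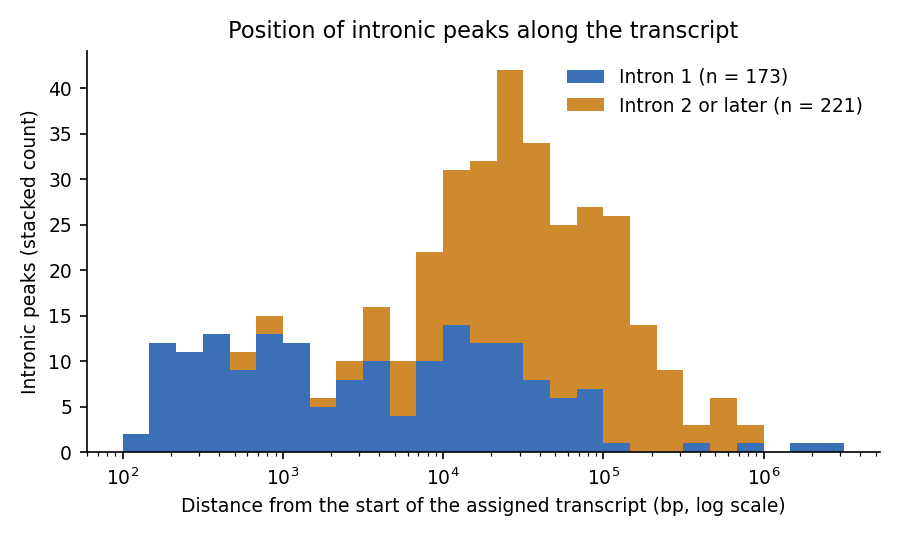
Number of intronic peaks (y axis, stacked) by distance from the start of the assigned transcript (x axis, bp, log scale), for 173 peaks in intron 1 and 221 in later introns. Peaks within 1 kb are nearly all in intron 1 (60 of 64), and the 3 farthest peaks, all in intron 1, belong to Gm20388.

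Intronic peaks were thinly covered. The median summit held 28 anti-IFNAR1 fragments (range 11 to 115), against 46 at TSS peaks and 30 at intergenic peaks. The median control background was 0.708 fragments per site, against 2 at TSS peaks and 0.708 at intergenic peaks. At least 211 members (53.6%) had 0 control fragments at the site itself, against at least 24.7% of TSS peaks. Both shares are minima, since the control count at the site was unknown for 22.8% of members and 33.5% of TSS peaks. The median fold over the background in the authors' deposited table was 4.62 (quartiles 3.92 and 5.38) for intronic peaks, 4.76 for TSS peaks and 4.71 for intergenic peaks. Members were thus nearer to intergenic than to TSS peaks in coverage on both sides. The classes differ in depth, and its part in these values was not tested.

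Stricter rules kept different shares of the members. At a q of 0.01, 266 members were kept (67.5%), where 82.4% of all listed peaks were. An exact conditional binomial test (one-sided) that counts the noise of the control fragments was then run over the whole list, called at the list's largest p, 6.90e-05. It uses the same fragments for which the peaks were listed, so a pass is not independent support. With the background window that the caller used, 305 members passed (77.4%), where 68.7% of all peaks did. At the site alone 22 passed (5.58%), where 20.9% of all peaks did. With 0 control fragments that test needs 39 fragments, which 96 members (24.4%) and 55.4% of all peaks had. The control count at the site could not be recovered for 90 members, and the most that the background allows was used there, so 22 is a minimum. For 71 members the background was the genome rate of 0.132 fragments, and the test with the window then held no control noise.

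**Figure D2:**
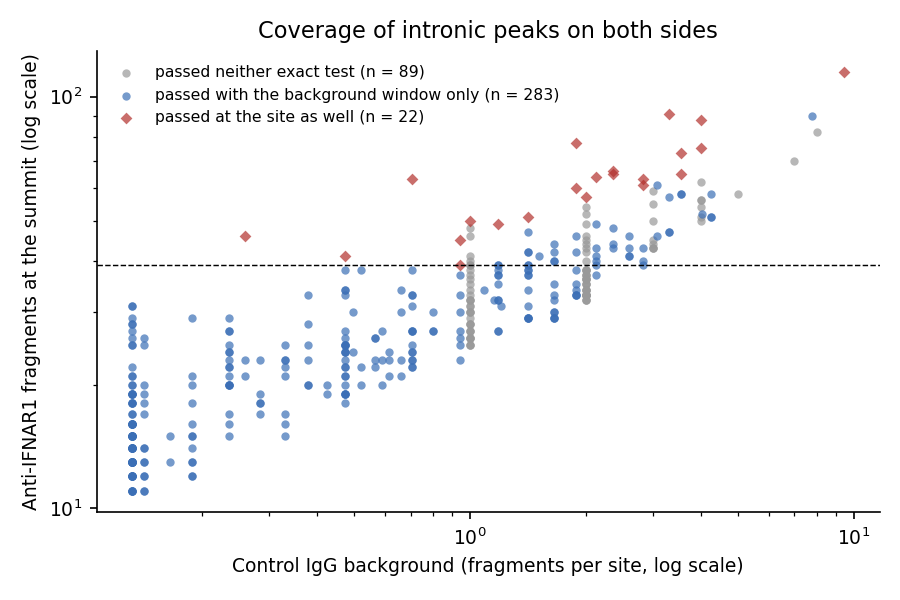
Anti-IFNAR1 fragments at the summit (y axis, log scale) against the control IgG background in fragments per site (x axis, log scale) for the 394 intronic peaks, with colours for the 2 exact tests. The dashed line stands at 39 fragments, the fewest that pass at the site with 0 control fragments; the 22 peaks that passed it lie on or above the line, and the column at the left edge is the genome rate.

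The intronic peak with the smallest q lay in intron 2 of Hivep1, a zinc finger factor that binds κB-like enhancer sites, 51.2 kb from the start (chromosome 13, 42103202 to 42104094). Its summit had 46 anti-IFNAR1 fragments, with 0 control fragments at the site, over a background of 0.260. The authors' deposited table gives it a fold of 11.1 and a q of 5.46e-15. The exact 95% interval of the depth-scaled coverage ratio began at 3.39. Such ratios and intervals, here and below, are of peaks listed for their high anti-IFNAR1 coverage, so they lean high. Both Hivep1 TSS peaks were listed too, with folds of 8.84 and 5.02, and a second intronic peak 7.1 kb away from it held 26 fragments against 1.

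Arid5b, which encodes a DNA-binding partner of a histone demethylase, came next, with 63 fragments over a background of 0.708 and a fold of 11.0, in intron 2 and 962 bp from the start of the assigned transcript (chromosome 10, 68276386 to 68277765). The Sirt2 peak, in intron 7 of this deacetylase gene, held 77 fragments over 1.89 and a fold of 7.88, and its summit lay 286 bp from the RefSeq start of Gm19897. The peak in intron 1 of Kcnn4 held 91 fragments over 3.30 and a fold of 6.21. Kcnn4 encodes the potassium channel KCa3.1, which sustains calcium entry in activated T cells. These 4 peaks passed the exact test at the site.

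Of the next 6 by q, Dapk1 (intron 18 of a death-associated kinase gene, 41 fragments over 0.472, fold 8.55) and Ninj2 (intron 1 of an adhesion protein gene, 50 against 1, fold 7.57) also passed it. The depth-scaled coverage of Ninj2 was 14.1 times the control, with an exact 95% interval of 2.42 to 569, which covers counting error only. The other 4 held fewer fragments than the test needs. They lay in intron 1 of Ptprn2 (31 fragments, fold 8.63), a phosphatase-like gene of secretory vesicles, intron 4 of Gm11110 (31 fragments, fold 8.63), intron 2 of Nek7, a kinase of the inflammasome (29 fragments, fold 8.13), and intron 6 of Vwf, the von Willebrand factor gene (29 fragments, fold 7.74). Each of these had 0 control fragments at the site.

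The other peaks that passed at the site are named after their values were seen. Intron 1 of Cxcr4, the chemokine receptor for CXCL12, held 60 fragments over 1.89 and a fold of 6.22, 167 bp from the start. Intron 2 of Rhof, a small GTPase gene, held 88 against 4 and a fold of 5.18. Intron 1 of Ksr1, a scaffold of the MAP kinase cascade, held 51 over 1.42 with a fold of 6.38, and intron 1 of Zfpm1, a cofactor of GATA factors, 65 over 3.54 with a fold of 4.27. The deepest of all members lay in intron 4 of Mnt, a repressor that pairs with MAX, with 115 fragments over 9.44 and a fold of 3.21. Rnf213, Cblb, Arhgef3, Arid1b, Scd2, Heca, Abtb2, Plekha2, Sh3glb1, Kif21b and Sik3 made up the remainder.

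Counted by gene, 8 of 31 genes of T cell receptor and costimulation signalling had an intronic peak (25.8%), where 345 of 21883 RefSeq protein-coding genes (1.58%) did. The density was 3.88 peaks per Mb of gene, against 0.370 over all these genes. That background counts every gene, whether or not T cells use it. Of the 31 genes, 24 had a listed peak of some kind, so listed peaks in these genes were not confined to introns. The 8 genes with an intronic peak included Cblb, Cd247, Cd3e, Dgkz, Lcp2, Plcg1 and Ptpn22. The median fold of their 8 peaks was 4.05 against 4.62 over all members. All 8 peaks passed the exact test with the background window, 4 kept a q of 0.01 and 1 passed at the site. Of all listed peaks 68.7%, 82.4% and 20.9% did, and of all members 77.4%, 67.5% and 5.58%. The background of all 8 peaks came from a 1 kb or 10 kb window, and every member with such a background passed with the window. Their 8 passes thus follow from that source. With 8 peaks these counts are a description.

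That 1 was Cblb, the ubiquitin ligase that restrains T cell activation, whose peak in intron 3 held 66 fragments over 2.36 with a fold of 5.85, while the Cblb TSS peak held 74 over 6 with a fold of 3.13. Of the receptor chains, Cd247, the zeta chain gene, had 27 fragments and a fold of 4.79 in intron 1, and Cd3e had 21 and a fold of 4.30 in intron 2, 630 bp from the start. Among the proximal signalling genes, intron 1 of Lcp2, the adaptor SLP-76, held 23 fragments with a fold of 4.79. Intron 2 of the phospholipase gene Plcg1 held 29 fragments over 1.42, with a fold of 3.81. Among the inhibitors, Dgkz, a diacylglycerol kinase gene, held 43 over 2.83 with a fold of 3.43, and the phosphatase gene Ptpn22 held 34 over 1.89 with a fold of 3.67. The 4 genes Cblb, Cd247, Cd3e and Plcg1 had a TSS peak as well, and the other 4 had none.

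Of 23 AP-1 and NF-κB genes, 3 had intronic peaks, 5 in all. Batf, an AP-1 factor needed for Tfh development, had 3 intronic peaks and no TSS peak. The pair in intron 1, 811 and 1417 bp from the start, held 27 anti-IFNAR1 and 0 control fragments each, with folds of 4.44 and 5.05, and were 298 bp apart. The third, in intron 2 at 18.1 kb, held 56 against 4 with a fold of 3.37, and its depth-scaled coverage was 3.96 times the control (exact 95% interval 1.46 to 15.0). Nfkb1, which encodes the p105 precursor of p50, had 47 fragments over 1.42 and a fold of 5.91 in intron 2, and Nfkbie, an inhibitor of NF-κB, had 22 against 0 and a fold of 4.75 in intron 1. Neither had a TSS peak. Batf was the single member among the 31 Tfh programme genes.

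Of 39 T cell transcription factor genes, 4 had an intronic peak. Runx1 held 30 fragments with a fold of 5.71 in intron 1, 23.7 kb from the start, and Rora 15 with a fold of 4.63 in intron 1, 381 kb from the start. Ikzf1, which encodes Ikaros, held 42 over 1.89 with a fold of 4.46 in intron 3, and Stat4, the factor of IL-12 signalling, 34 against 2 with a fold of 3.54 in intron 3. Runx1, Ikzf1 and Stat4 had a TSS peak too. Rora had none in that section, but a peak in its coding exon 1 lay 220 bp from a transcript start and held 76 fragments over 3.07, with a fold of 5.53. The background of the Stat4 peak came from the site, where the 2 forms of the exact test are the same. It did not pass (one-sided exact p = 0.00788).

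Of 22 Th1 and cytotoxic genes, Ifng and Stat4 were members. The Ifng peak, in intron 1 at 826 bp, held 18 anti-IFNAR1 and 0 control fragments, and the exact 95% interval of the depth-scaled ratio began at 1.24. Of 31 cytokine receptor and JAK-STAT genes, Stat4 and Il2ra were members. The Il2ra peak, in intron 1 of the gene for CD25 and 21.5 kb from the start, held 13 against 0. Its 2-sided interval began at 0.862, a value below equal coverage. The one-sided exact test at the site gave p = 0.0393, which did not reach the list's largest p. Of 42 interferon-stimulated genes, 2 were members (4.76%). Rnf213, a ubiquitin ligase gene, held 57 against 2 in intron 19 with a fold of 5.70, and its depth-scaled coverage was 8.06 times the control (exact 95% interval 2.13 to 68.1). Oas3, an antiviral synthetase gene, held 17 against 0 in intron 1 with a fold of 4.70. None of 16 housekeeping genes had an intronic peak, though 9 had a listed peak of some kind. Over all RefSeq protein-coding genes the share with an intronic peak was 1.58%. At that share 0 is the likely count in so short a list, and the counts of these lists are a description.

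Genes with an intronic peak were long. Their median RefSeq length was 78.8 kb, against 26.3 kb for the 4045 genes with a TSS peak and 17.2 kb for all protein-coding genes. The share of genes with an intronic peak went from 0.139% under 10 kb to 6.83% (Wilson 95% interval 5.02 to 9.24) over 300 kb. Per Mb of gene, the order was different. The density was highest at 0.539 peaks for genes of 30 to 100 kb and lowest at 0.154 for those over 300 kb, as the plot of length classes shows.

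**Figure D3:**
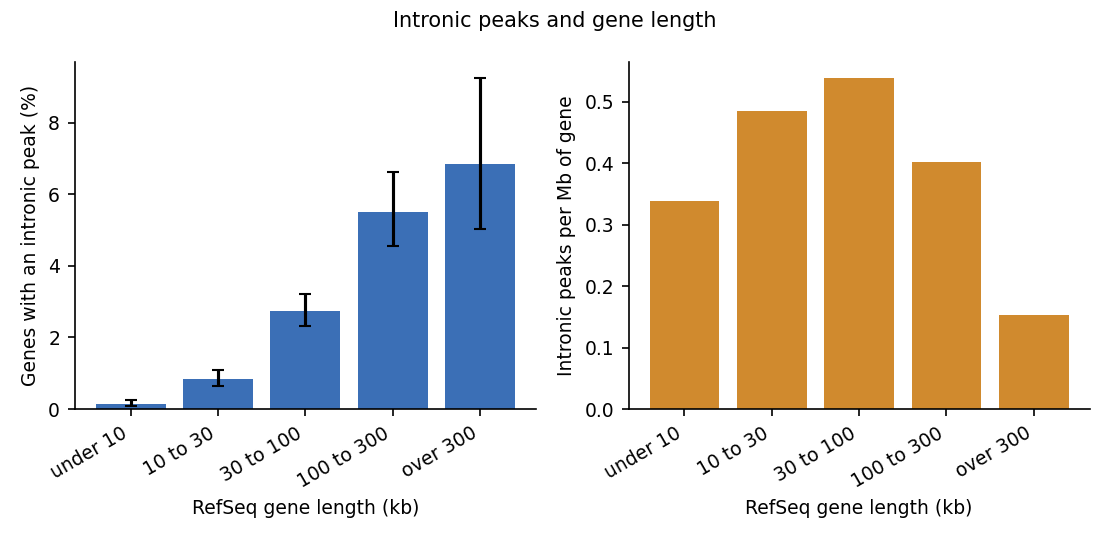
Share of RefSeq protein-coding genes with an intronic peak (left, %, bars with Wilson 95% intervals) and intronic peaks per Mb of gene (right, bars) by gene length in kb. The share rises with length from 0.139% to 6.83%, while the density is lowest, 0.154 per Mb, in genes over 300 kb.

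Several intronic peaks in 1 gene were the exception. Of the 348 genes, 310 had 1 intronic peak, 32 had 2, 5 had 3 and 1 had 5. The 38 genes with several peaks held 84 of the 394 (21.3%), and 19 of them (50%) also had a TSS peak, against 29.7% of genes with 1. Their median RefSeq length was 187 kb. In 19 of the 38 all peaks lay in 1 intron, and in 9 the closest pair was at most 2 kb apart. Such close pairs lay in Kif1bp, Batf, Atg10, Igf1r, Stk39, Lpp, Tnrc6b, Unc45b and Pde11a. Peaks of 1 gene share that gene's chromatin and are not independent.

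Msi2, which encodes the RNA-binding protein Musashi 2, had the most, with 5 peaks in introns 5 to 7 between 98.0 and 263 kb from the start. They held 49, 32, 35, 25 and 36 fragments in order of distance, with folds of 4.75, 3.35, 3.63, 4.03 and 3.73. The nearest of them passed the exact test with the background window. The other 4 had 1 or 2 control fragments at the site as background. They did not pass the exact test, whose 2 forms are the same there. Prkch, a protein kinase C gene expressed in T cells, had peaks in introns 1, 6 and 10 with 41, 49 and 30 fragments. Lpp, a LIM-domain protein gene, had 3 peaks between 467 and 540 kb from its start, of which 2 lay 445 bp apart. The other Arid5b peaks, 30.7 and 39.1 kb from the start, held 26 and 35 fragments.

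Gm20388 was a different case. Its 3 peaks were placed in intron 1 of a transcript model at 815, 1674 and 2646 kb from its start, no RefSeq gene of that name was matched, and other genes lie within that span. Their nearest RefSeq starts were those of Irf8 (10.8 kb), Map1lc3b (4.95 kb) and Gm34847 (458 bp). Together with peaks in intron 4 of Prkg1 (745 kb) and Pcdh9 (773 kb), with 12 and 11 fragments, they were the 5 farthest from a start. The widest members were those of Galm (1880 bp), Sh2d3c (1584 bp) and the Prkch intron 6 peak (1557 bp).

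**Figure D4:**
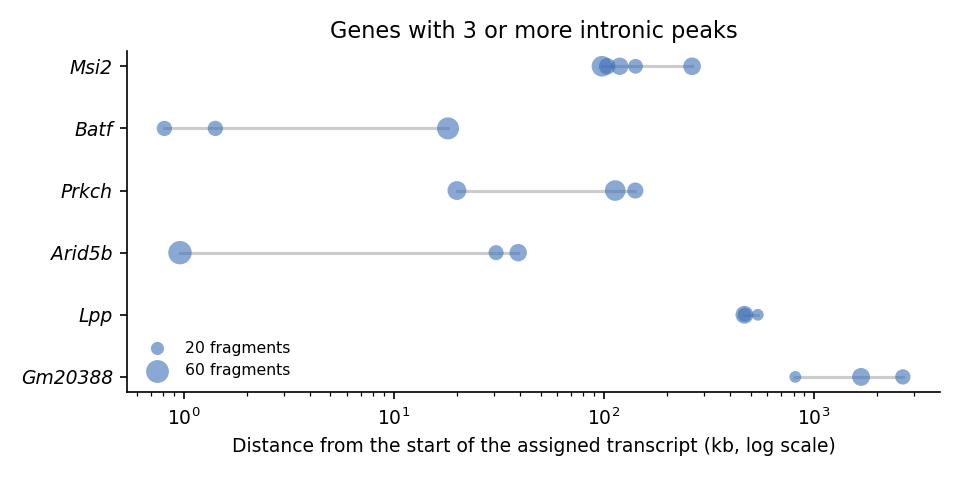
Distance of each intronic peak from the start of the assigned transcript (x axis, kb, log scale) in the 6 genes with 3 or more. Point area is proportional to the anti-IFNAR1 fragments at the summit. The Msi2 peaks lie from 98.0 to 263 kb and the Gm20388 peaks from 815 to 2646 kb.

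Most genes with an intronic peak had no peak in the table's TSS section. A TSS peak was listed for 111 of the 348 genes (31.9%, Wilson 95% interval 27.2 to 37.0), and for 219 (62.9%) the intronic peaks were the only ones listed. By peak, 133 members (33.8%) lay in genes with a TSS peak and 261 did not. Seen from the starts, 111 of 4045 genes with a TSS peak had an intronic one (2.74%), against 234 of 17838 genes without (1.31%). Of the 237 genes without a TSS peak, 10 had a listed exon peak within 1 kb of a start, among them Lrch1 (103 bp, 56 fragments) and Rora, and 57 had an intronic peak within 1 kb of the start of its transcript, among them Cxcr4. The remaining 171 had neither. They include Adk, Tnrc6b and Arhgef3, whose intronic summits lay within 1 kb of another RefSeq start of the gene, as given below. At starts of the 171 genes without a listed peak, the table does not tell whether they were closed, open alike or more open under control IgG.

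Members in genes with a TSS peak held slightly more fragments than the others, with no test of the difference. Those in genes with a TSS peak had a median of 31 fragments over a background of 1 and a fold of 4.47, and the others 27 fragments over 0.590 and a fold of 4.63. The exact test with the background window kept 70.7% of the former and 80.8% of the latter, and the test at the site 7.52% and 4.60%. The background came from a wider window or the genome rate for 69.2% and 80.1%, and every such member passed with the window. The median distance was 25.8 and 18.1 kb. The nearest listed peak of any kind lay 19.1 kb away for the former and 60.8 kb for the latter. The former all have a TSS peak in the gene, which itself counts as a listed peak, so the grouping favours a shorter distance there. In intron 1, 30.1% of peaks had a TSS peak in the gene, and in later introns 36.7%. Without a TSS peak, the 5 smallest q were those of Arid5b, Sirt2, Ptprn2, Gm11110 and Dapk1, given above.

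Within the 111 genes that had both, the 2 kinds of peak were called with nearly the same median fold, 4.67 in the intron and 4.66 at the start. The intronic fold was the higher of the pair in 50 genes, the TSS fold in 59, and they were equal in 2. Coverage was not alike. The intronic peak held fewer fragments in most pairs and more in 26 of 111, with medians of 32 and 48, and its background was the higher in 30. In Nek7 the intronic fold was 8.13 against 3.71 at the start, and in Hivep1 11.1 against 8.84. The other way round, the folds were 4.98 and 14.5 in Kif1bp, 3.83 and 9.96 in Msn and 5.48 and 11.3 in Sh3rf1, genes named after their values were seen. The plot of fold pairs shows no tight relation across genes, and since every peak had to pass the caller's threshold, low folds are missing from both axes.

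**Figure D5:**
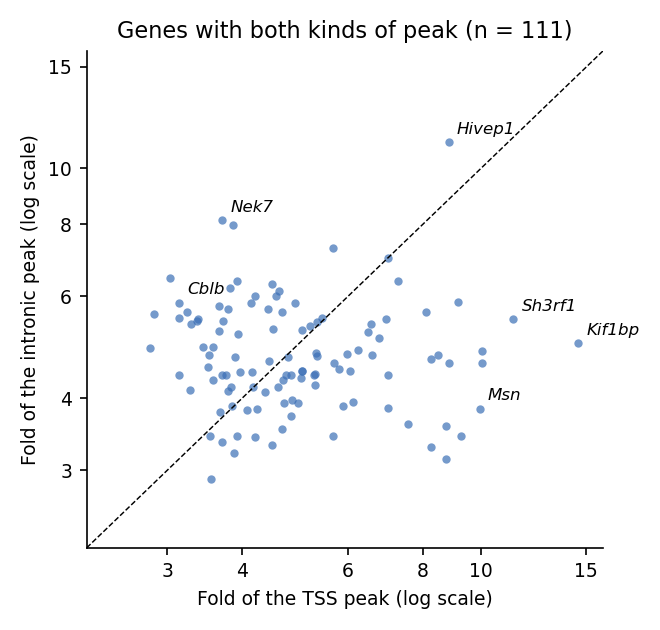
Fold over the control background in the authors' deposited table of the intronic peak with the smallest q (y axis, log scale) against that of the TSS peak with the smallest q (x axis, log scale) in each of the 111 genes with both. The dashed line marks equal folds; 50 genes lie above it and 59 below, with Hivep1, Nek7 and Cblb above it and Kif1bp, Msn and Sh3rf1 below.

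Few intronic peaks had their summit near a RefSeq start. Of 384 peaks, leaving out the 10 on chromosome 18, 51 (13.3%, Wilson 95% interval 10.2 to 17.0) had their summit within 1 kb of a RefSeq start of any gene, 40 of them within 1 kb of a start of the named gene. Among those 40, 35 also lay within 1 kb of the start of their assigned transcript, which may be the same start. Of the 275 peaks over 5 kb from the start of their assigned transcript, 11 (4.00%) were within 1 kb of a RefSeq start. For 4 of these it was a start of the same gene. They were the Adk peak (40 fragments against 1, fold 6.15), the larger of 2 Tnrc6b peaks (54 against 2, fold 5.42), Cast (58 against 5, fold 2.90) and the Arhgef3 peak in intron 2 of this exchange factor gene (64 over 2.12, fold 6.11). The starts of Adk, Tnrc6b and Arhgef3 had no TSS peak by the table's sections, and Cast had one. The other 7 lay near starts of genes that RefSeq gives as lncRNAs, within Sirt2, Gm11110, Msi2, Galntl6, Gm20388, Gm44511 and Antxr2.

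The assignment to a host gene was mostly clear. Of the 394 peaks, 390 were matched to a RefSeq gene by symbol or synonym, 385 had their summit inside that gene and 36 lay in the span of more than 1 RefSeq gene. The assigned transcript was itself protein coding for 308 peaks (78.2%), while 36 were placed by a retained-intron transcript, 36 by a processed transcript and 14 by one subject to nonsense-mediated decay. For those the intron number and distance refer to that transcript. The summits of both Kif1bp peaks, and of a peak each of Sbk2, Lrrk1 and Cfap43, lay outside the matched RefSeq gene.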

How the data were processed

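ATAC-seq libraries of 7 samples were grouped by their treatment label. The submitters' processing notes name build mm10, bedtools, DESeq2, DiffBind 2.0.7, BWA 0.7.9a and MACS2 2.1.0.20150420, with no role or order. For cut-site shifting and duplicates, the handling was not given in the sources used here. In the authors' deposited table each peak has a pileup (a signal on the anti-IFNAR1 side), a fold enrichment (a ratio to local background), a −log10 p and a −log10 q, and positions are printed as it gives them. The headers of the −log10 columns are damaged, and they were read by place and values. Whether libraries were pooled per side is not stated and was assumed. Depth per sample is unknown.

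Every pileup was a whole multiple of 0.283 (tolerance 0.005), which gave fragments. The background was fold-derived, with a pseudocount of 1, and came from the site, a 1 kb or 10 kb window of 236 bp fragments, or the genome rate. The exact test at the site was tested on simulated counts, at a looser level than the list's largest p. The simulated control rates were higher than the recovered backgrounds. The form with the background window was not simulated. Medians, shares and Wilson or exact 95% intervals cover counting error only, since PCR copies are not independent molecules, and were computed in Python 3.11.15 with scipy 1.17.1. No test compares peak classes, since peaks are not replicates.

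Symbols turned into dates by a spreadsheet (2 members) were read from transcript names. Genes, starts and promoter sequences are from RefSeq (GRCm38.p6), and all 260 genes of the 11 lists matched. Members and lists were chosen with earlier results of these data known. Named are the 10 smallest q, genes with 3 or more members, the 5 farthest, the 3 widest, list genes, and the 5 smallest q without a TSS peak, in intron 1 and in later introns; the intron 1 peaks of Dnajc17 (26 fragments, fold 7.38) and Sh2d3c (25 fragments, fold 7.07) complete that rule. A gene that the rule also names is not reported here. Alternatives were a q of 0.01, a pileup of at least 10, every biotype, 1 value per gene, other distances and, added after the data were seen, the exact tests.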

Additional observations from a re-analysis of the deposited data

How the results depend on the processing

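Of the 394 members, 266 remained at the stricter q (0.01) and 123 when the pileup had to reach 10, and every biotype together gave 448. The exact test kept 305 members with the window, including all 301 with a background from beyond the site, and 22 at the site alone. With the window it counted no control noise for the 71 members at the genome rate. The share in intron 1 stayed between 43.6% and 45.5% under a q of 0.01, the pileup filter, 1 value per gene and the exact test with the window, and was 36.4% among the 22 kept at the site. The share within 5 kb was 36.4% among those 22, against 27.9%. The share with a TSS peak in the gene moved from 33.8% to 42.3% with a pileup of at least 10, to 45.5% among the 22, and to 40.5% when any listed peak within 1 kb of a RefSeq start of the gene counted (301 members with such a start). The median fold of 4.62 became 5.05 under the stricter q, 4.74 for members passing with the window and 6.15 among the 22. For the shares the cause was not tested; the q and both exact tests select on coverage over background by construction. The share near a RefSeq start was 13.3% within 1 kb, 8.33% within 500 bp and 20.1% within 2000 bp, as the width alone requires. Windows of 200 bp and whole peaks for motifs were not run, since no genome was used here. No paired analysis was possible because the table holds no value per sample, and for the same reason no sample was left out in turn.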
